A study of Mus musculus with 36 samples.

Results

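The Total RNA response of hippocampal mini-slices to chemical long-term potentiation (LTP) was compared between 120 and 60 min after induction, in 12 of the 36 libraries of the study. For every gene the response at a time was the ratio of LTP over basal within replicate pairs, and the quantity described here was the response at 120 min minus the response at 60 min, on the log2 scale. Of 15648 genes with enough reads to be tested, 120 had a larger log2 response at 120 min (0.767% of the genes tested) and 13 a smaller one (0.0831%), together 133 genes (0.85%). Larger and smaller refer to the signed log2 value, so that a gene lowered further by LTP at 120 min counts as smaller. A gene was called when its false discovery rate (FDR, the Benjamini-Hochberg adjusted p over all genes tested) was under 0.1 and its log2 value was above 0.4 in size, which are the criteria of the study.

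The 4 groups were LTP at 120 min, basal at 120 min, LTP at 60 min and basal at 60 min, with 3 replicates each. All came from young adult C57BL/6 mice of both sexes, heterozygous for RiboTag and for Camk2a-cre, so that every group, basal included, carried an HA-tagged ribosomal protein L22 in the excitatory neurons where Camk2a-cre is active. Mini-slices held CA3, CA2 and CA1, the dentate gyrus having been dissected away. LTP slices received forskolin, an activator of adenylyl cyclase, and then forskolin with raised potassium and calcium in artificial cerebrospinal fluid without magnesium, and basal slices were time-matched and received the vehicle. Slices of each animal were divided between the basal and the LTP sample of one replicate on one day, so that each LTP library has its own basal partner. Total RNA was taken from a small part of the homogenate, before the tagged ribosomes were pulled down for the TRAP libraries (translating ribosome affinity purification), and holds RNA of all cell types, so that fewer cells of a type and less RNA per cell cannot be told apart. All libraries of one time were made and sequenced together, hence levels at 120 and 60 min cannot be told apart from batch, and only the responses within pairs are compared between times.

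Long-term potentiation is a lasting strengthening of synapses and a cellular model of memory, and its late phase needs new transcription. Synaptic activity raises calcium and cyclic AMP, which act through kinases on factors that are already present in the cell, such as CREB and SRF, and these switch on immediate early genes without new protein synthesis. Many immediate early genes encode transcription factors that act on a second wave of genes, others act directly at synapses, and others again encode inhibitors that switch the signal off. Forskolin raises cyclic AMP in every cell type of a slice.

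The promoters of some of the genes described below are shown first, because CREB binds the cyclic AMP response element TGACGTCA or its core TGACG, and NF-kappa B, the main regulator of inflammatory genes, binds sequences of the form GGGANNTTCC. In RefSeq promoters (250 bases before to 50 bases after each start, build GRCm38.p6, both strands searched, the core counted also within the whole element), 11643 of the 15648 genes tested had an entry. Of the promoters of genes called at both times with a larger response at 120 min, 16 of 26 genes had an entry and 15 of these 16 held TGACG (93.8%), against 33.5% of all genes tested with an entry. Of genes called at 120 min only, 59 of 74 had an entry and 28 held it (47.5%), and these genes had 1.51 promoters a gene against 1.28 over all genes. The whole element stood in 3 of 16 (18.8%) and 6 of 59 (10.2%) of these 2 sets, against 3.38% of all genes. The NF-kappa B form stood in 4 of the 6 cytokine genes called higher (66.7%), against 1.67% of all genes. The AP-1 form TGANTCA stood in 3 of these 6 (50%), 0 of the 16 and 7 of the 59 (11.9%), against 6.42% of all genes. The E-box form CACGTG stood in 0 of the 6, 4 of the 16 (25%) and 11 of the 59 (18.6%), against 11.3%. The form bound by SRF stood in 0 of the 6, 1 of the 16 (6.25%) and 1 of the 59 (1.69%), against 1.61%. The stretches below lie within the 250 bases before the annotated start, with at most 45 bases on each side of the outermost sites. Those of Nr4a1, Errfi1, Ccnl1, Maff and Il6 end at the start. Those of Fos, Trh, Cxcl1, Cxcl2 and Cxcl10 end before it. All show, in capitals, TGACG or its reverse complement CGTCA, the whole element, or the NF-kappa B form. They are given 5′ to 3′ on the strand of the gene.
Nr4a1 (chr15:101266596-101266845, plus strand, 4 cores): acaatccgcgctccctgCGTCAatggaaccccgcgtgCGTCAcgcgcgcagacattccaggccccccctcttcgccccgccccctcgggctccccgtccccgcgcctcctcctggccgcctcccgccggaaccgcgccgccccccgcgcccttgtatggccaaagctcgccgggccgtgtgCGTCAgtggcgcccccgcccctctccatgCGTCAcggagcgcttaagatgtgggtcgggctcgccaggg
Fos (chr12:85473716-85473873, plus strand, 2 cores): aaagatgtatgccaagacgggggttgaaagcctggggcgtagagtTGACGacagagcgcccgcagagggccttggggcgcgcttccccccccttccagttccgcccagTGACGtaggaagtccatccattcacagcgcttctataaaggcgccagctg
Errfi1 (chr4:150854974-150855069, plus strand, 1 whole element): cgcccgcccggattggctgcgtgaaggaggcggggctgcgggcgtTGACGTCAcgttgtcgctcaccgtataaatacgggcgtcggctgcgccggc
Ccnl1 (chr3:65958250-65958312, minus strand, 1 whole element): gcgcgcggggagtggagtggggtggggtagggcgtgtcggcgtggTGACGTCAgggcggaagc
Maff (chr15:79347446-79347519, plus strand, 1 whole element): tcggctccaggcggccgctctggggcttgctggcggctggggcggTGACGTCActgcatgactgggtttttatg
Trh (chr6:92244697-92244791, minus strand, 1 core): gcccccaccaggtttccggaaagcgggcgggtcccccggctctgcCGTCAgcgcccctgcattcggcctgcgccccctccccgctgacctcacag
Il6 (chr5:30013025-30013113, plus strand, 1 NF-kappa B form): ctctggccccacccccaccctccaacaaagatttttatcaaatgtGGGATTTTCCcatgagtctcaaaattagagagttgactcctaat
Cxcl1 (chr5:90891129-90891229, plus strand, 2 overlapping NF-kappa B forms): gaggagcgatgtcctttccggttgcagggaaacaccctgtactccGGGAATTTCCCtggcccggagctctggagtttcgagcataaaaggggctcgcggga
Cxcl2 (chr5:90903757-90903857, plus strand, 2 overlapping NF-kappa B forms): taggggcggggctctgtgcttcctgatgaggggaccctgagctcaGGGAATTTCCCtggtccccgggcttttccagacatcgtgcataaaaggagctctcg
Cxcl10 (chr5:92348994-92349093, minus strand, 1 NF-kappa B form): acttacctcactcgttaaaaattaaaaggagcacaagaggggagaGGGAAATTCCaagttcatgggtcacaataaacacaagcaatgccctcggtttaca

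A match is a description of these letters, and binding was not measured here. The Ccnl1 stretch overlaps an antisense gene model and the other stretches no annotated exon.

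Each response was first set against basal slices of its own time. At 120 min, 203 genes were called higher (1.3%) and 33 lower (0.211%) in LTP than in basal slices, and at 60 min 39 were called higher (0.249%) and 13 lower (0.0831%). The median response over all genes tested was 0.00 at both times, and so was the median difference. Of the 39 genes higher in LTP at 60 min, 38 were also called higher at 120 min, with a median log2 response of 1.20 at 120 min and 0.68 at 60 min. None of the 39 genes was called lower in the difference.

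The 120 genes with a larger response at 120 min had a median difference of 0.55 and a largest one of 2.10, and 8 of them exceeded 1. In 117 of the 120, all 3 pair ratios at 120 min lay above all 3 at 60 min, a separation found in 7.76% of all genes tested, and in 11 of the 13 with a smaller response all lay below (6.67% of all genes). The 120 genes fell into 74 late-onset genes, called higher in LTP at 120 min and not at 60 min, 26 genes still rising, called higher at both times with the larger response at 120 min, and 18 called at neither time alone. The other 2 were Xist and Ttn, called lower in LTP at 60 min and not called at 120 min. A fit without the pair block called 72 genes larger and 1 smaller. The count of smaller responses depended on single pairs and was 21 without replicate 1 at 120 min, 4 without replicate 2 at 120 min and 4 without replicate 3 at 60 min, against 13 with all pairs.

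**Figure D1:**
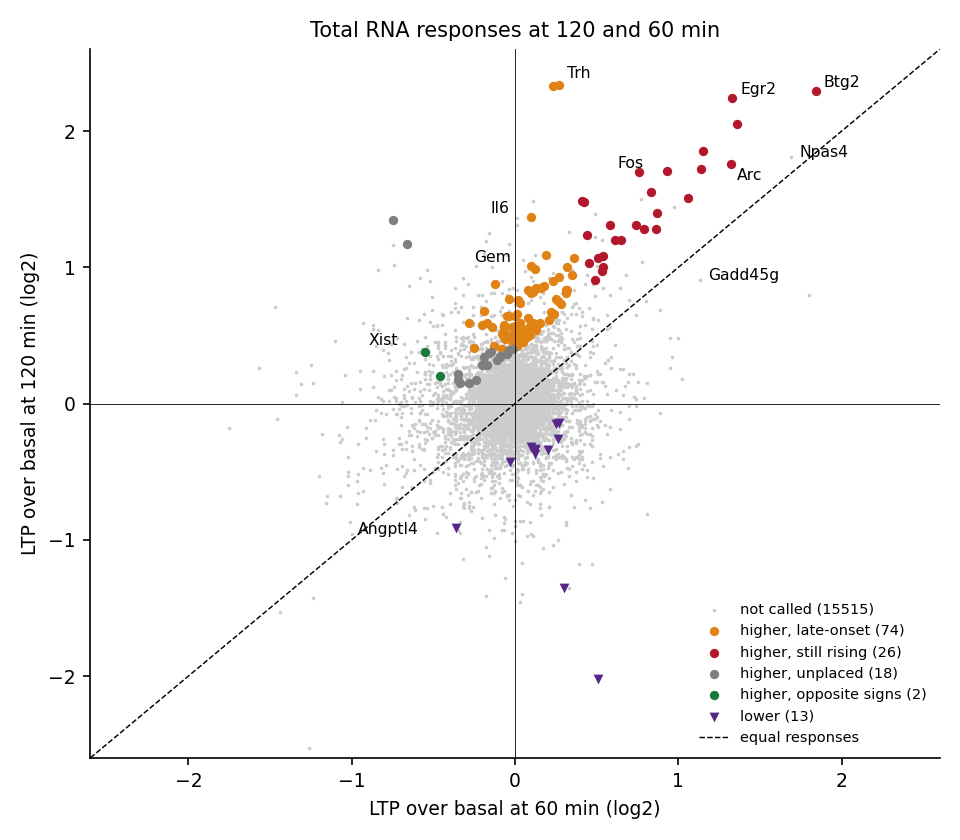
Log2 response of LTP over basal at 120 min (y axis) against 60 min (x axis) for each gene tested, with genes called in the difference coloured by class and the dashed line marking equal responses. The 120 genes called higher lie above the line, most of the 74 late-onset genes near 0 on the x axis. The axes run to 2.6 and 2 genes lie outside them.

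Among the 26 genes still rising, the median log2 response was 1.35 at 120 min and 0.746 at 60 min. The transcription factors of this class included AP-1 subunits, zinc finger factors and a nuclear receptor. Fos, a subunit of the AP-1 factor, had 37774, 37813 and 38361 normalised counts in LTP slices at 120 min, against 11110, 10690 and 13265 in basal slices. These are read counts scaled to the mean size of the 12 libraries. At 60 min Fos had 36163, 36152 and 35151 in LTP slices, against 17865, 20288 and 18251 in basal slices. Fos levels in LTP slices were close at both times and far above every basal slice, and basal slices at 120 min lay below those at 60 min. Its response was 3.26-fold at 120 min and 1.91-fold at 60 min, a log2 difference of 0.77 ± 0.061 (SE; FDR = 1.26e-07). Junb, another AP-1 subunit, had 22035, 23024 and 22413 normalised counts in LTP slices at 120 min, against 6645, 6884 and 6958 in basal slices, and 21935, 22747 and 21843 in LTP slices at 60 min, against 9441, 11420 and 9450. Its log2 difference was 0.58 ± 0.053 (FDR = 2.86e-07), again with LTP slices at similar levels and lower basal slices at 120 min. Fosb, whose protein can persist in stimulated neurons, differed by 0.56 ± 0.068 (FDR = 1.74e-05).

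Nr4a1, an orphan nuclear receptor induced by cyclic AMP, had 11016, 11839 and 11634 normalised counts in LTP slices at 120 min, against 4082, 3747 and 3984 in basal slices. At 60 min it had 7418, 8242 and 7938 in LTP slices, against 4038, 5074 and 4235 in basal slices. Here the LTP slices were higher at 120 min, with no overlap between any LTP and basal slices. The response was 2.92-fold at 120 min and 1.77-fold at 60 min (log2 difference 0.72 ± 0.060, FDR = 1.26e-07). Egr2, a zinc finger factor, had the largest response of the class beside Btg2, with 2247, 2659 and 2023 normalised counts in LTP slices at 120 min, against 506, 426 and 534 in basal slices. Its counts at 60 min were 1679, 1794 and 2008 in LTP slices, against 648, 771 and 752 in basal slices. The pair ratios of Egr2 on the log2 scale lay between 1.92 and 2.64 at 120 min and between 1.22 and 1.42 at 60 min, and the difference was 0.90 ± 0.11 (FDR = 1.61e-05). The related Egr4 and Egr1 differed by 0.69 ± 0.081 (FDR = 1.08e-05) and 0.57 ± 0.072 (FDR = 2.55e-05). Klf4 and Klf2, Krüppel-like factors, differed by 0.73 ± 0.071 (FDR = 8.15e-07) and 0.49 ± 0.093 (FDR = 0.00363), Nfil3, a basic leucine zipper repressor, by 0.58 ± 0.067 (FDR = 8.99e-06) and Ier2, a nuclear immediate early protein, by 0.53 ± 0.087 (FDR = 0.00076).

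Effectors at the synapse and enzymes were found in the same class. Arc, which acts in the removal of AMPA receptors from synapses, had 22891, 25296 and 22391 normalised counts in LTP slices at 120 min, against 6369, 7167 and 7342 in basal slices. Its counts at 60 min were 22370, 23787 and 25964 in LTP slices, against 9178, 10066 and 9565 in basal slices. The LTP levels overlapped between times and the basal levels did not. Its response was 3.38-fold at 120 min and 2.5-fold at 60 min (log2 difference 0.44 ± 0.059, FDR = 6.11e-05), and the call was lost without replicate 1 at 120 min or without replicate 2 at 60 min. Rgs4, a brake on G protein signalling, had 19616, 21439 and 20999 normalised counts in LTP slices at 120 min, against 10719, 11368 and 10990 in basal slices, and 13515, 14992 and 16801 in LTP slices at 60 min, against 9653, 11077 and 11473. Here the LTP slices were higher at 120 min and the basal slices overlapped between times (log2 difference 0.42 ± 0.045, FDR = 3.89e-06, lost without replicate 2 at 60 min and after a correction for length and GC content). Rasl11a, a small GTPase of the Ras family, had 2158, 2193 and 2197 normalised counts in LTP slices at 120 min, against 739, 775 and 816 in basal slices. It had 1917, 1730 and 1759 in LTP slices at 60 min, against 1250, 1578 and 1233 in basal slices, and its log2 difference of 1.08 ± 0.090 (FDR = 1.26e-07) was the largest of this class. Ptgs2, the inducible cyclooxygenase that makes prostaglandins, had 11605, 12784 and 13678 normalised counts in LTP slices at 120 min, against 5220, 5346 and 6060 in basal slices. It had 7278, 7496 and 8708 in LTP slices at 60 min, against 4852, 5154 and 5376 in basal slices, and differed by 0.59 ± 0.050 (FDR = 1.26e-07).

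Thbs1, which encodes thrombospondin 1, a matrix protein that promotes synapse formation, had 1511, 1549 and 1216 normalised counts in LTP slices at 120 min, against 501, 547 and 479 in basal slices. At 60 min there were 736, 488 and 742 in LTP slices, against 491, 454 and 499 in basal slices, where 1 LTP value fell within the basal range. The log2 difference was 1.06 ± 0.10 (FDR = 9.1e-07). The matrix protein gene Cyr61 differed by 0.56 ± 0.074 (FDR = 4.57e-05).

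Feedback inhibitors were also among the genes still rising. Btg2, which recruits the deadenylation machinery to mRNAs, had 6835, 6885 and 7591 normalised counts in LTP slices at 120 min, against 1340, 1484 and 1529 in basal slices. The 60 min counts were 7995, 9194 and 9895 in LTP slices, against 2443, 2811 and 2318 in basal slices, so that both groups lay lower at 120 min. The response of 4.89-fold at 120 min and 3.57-fold at 60 min gave a log2 difference of 0.45 ± 0.077 (FDR = 0.00107), which was lost without the pair block and without replicate 1 or replicate 2 at 60 min. Dusp6 and Dusp1, phosphatases that switch off ERK and other MAP kinases, differed by 0.55 ± 0.058 (FDR = 2.49e-06) and 0.42 ± 0.063 (FDR = 0.000252). Sik1, a kinase induced by cyclic AMP that restrains CREB coactivators, differed by 0.81 ± 0.072 (FDR = 1.91e-07), and Ppp1r15a, a regulatory subunit of the phosphatase that restores translation after stress, by 0.45 ± 0.061 (FDR = 5.84e-05). Dusp1 lost its call without replicate 2 of either time and Ppp1r15a without replicate 2 at 120 min.

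The loci of 2 microRNAs, Mir132 and Mir212, which lie next to each other on chromosome 11 and are known CREB targets in neurons, were still rising. Their mature 3p forms share a seed (bases 2 to 8, in capitals, build GRCm38.p6, plus strand).
mmu-miR-132-3p (chr11:75173723-75173744): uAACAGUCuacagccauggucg
mmu-miR-212-3p (chr11:75173443-75173464): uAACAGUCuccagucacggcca

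The reads counted at these loci come from libraries of long RNA and stand for the precursor, so the mature forms were not measured. Mir212 had 266, 306 and 261 normalised counts in LTP slices at 120 min, against 87.7, 70.2 and 73.5 in basal slices, and 243, 258 and 227 in LTP slices at 60 min, against 102, 135 and 89.1. Mir132 had 166, 215 and 183 in LTP slices at 120 min, against 67.0, 46.4 and 60.5 in basal slices, and 136, 122 and 128 in LTP slices at 60 min, against 61.2, 78.9 and 87.5. No LTP slice overlapped a basal slice at either time. The log2 differences were 0.70 ± 0.18 (FDR = 0.0466) for Mir212 and 0.95 ± 0.22 (FDR = 0.0308) for Mir132. Both calls were lost in some fits that left out 1 pair.

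**Figure D2:**
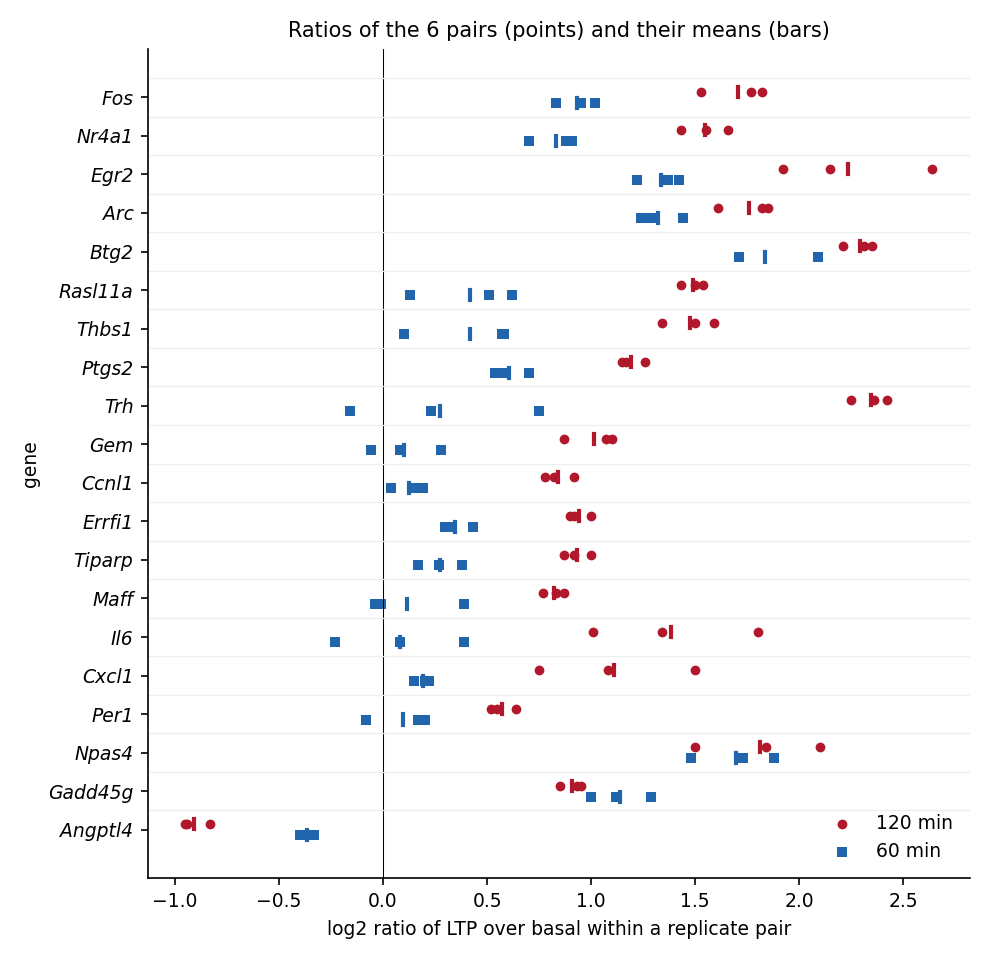
Log2 ratio of LTP over basal within each replicate pair (x axis) for 20 genes (y axis), with circles for the 3 pairs at 120 min, squares for the 3 pairs at 60 min and vertical bars for their means. The ratios at 120 min lie above those at 60 min without overlap for Fos, Egr2, Arc and Trh, overlap for Npas4, and lie below for Gadd45g and Angptl4.

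Whether a larger response came with higher LTP levels or with lower basal levels was read from the group means. Of the 120 genes, 114 had a higher LTP mean at 120 min than at 60 min, 77 a lower basal mean at 120 min, and 71 both. Among the 26 genes still rising these counts were 22 and 20, and among the 74 late-onset genes 72 and 45. Selection for a larger ratio at 120 min by itself favours a higher LTP mean and a lower basal mean there. Shares of these patterns over all genes tested are not given. Since each time is its own batch, these levels are a description and were not tested.

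**Figure D3:**
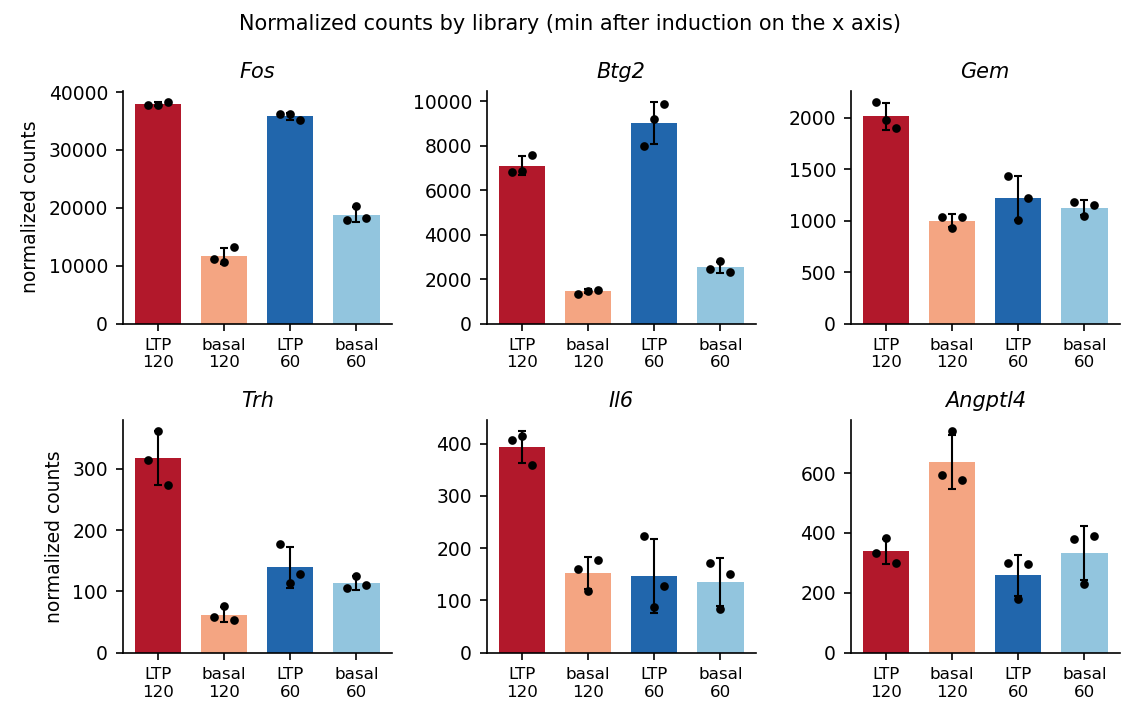
Normalised counts of 6 genes in LTP at 120 min, basal at 120 min, LTP at 60 min and basal at 60 min, with bars for means, error bars for SD and points for the 3 libraries. Fos has LTP bars of similar height at both times and a lower basal bar at 120 min, while Gem, Trh and Il6 have their highest bar in LTP slices at 120 min.

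The 74 late-onset genes had a median log2 response of 0.603 at 120 min and 0.0721 at 60 min, and their responses at 120 min ran between 0.40 and 2.34. At 60 min, 15 of the 74 passed the FDR with a fold under the threshold, 59 did not pass it, and 21 had a value below 0. The largest response belonged to Trh, the precursor of thyrotropin-releasing hormone. Trh had 315, 362 and 274 normalised counts in LTP slices at 120 min, against 58.5, 75.6 and 52.9 in basal slices. Counts at 60 min were 177, 113 and 128 in LTP slices, against 105, 126 and 110 in basal slices. The groups were far apart at 120 min and overlapped at 60 min, the responses being 5.08-fold and 1.20-fold (log2 difference 2.08 ± 0.20, FDR = 8.03e-07). Inhba, which encodes a subunit of activin, differed by 0.48 ± 0.10 (FDR = 0.0129, lost without the pair block and under DESeq2) and Pthlh, which encodes parathyroid hormone-related protein, by 0.81 ± 0.21 (FDR = 0.0599, lost in some fits without 1 pair).

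Gem, a GTPase that inhibits voltage-gated calcium channels, had 2158, 1980 and 1902 normalised counts in LTP slices at 120 min, against 1031, 925 and 1039 in basal slices. At 60 min it had 1436, 1004 and 1217 in LTP slices, against 1186, 1047 and 1150 in basal slices. The groups differed at 120 min in every pair and overlapped at 60 min (log2 difference 0.91 ± 0.079, FDR = 1.26e-07). Nptx2, a secreted pentraxin that clusters AMPA receptors, had 5548, 5723 and 5124 normalised counts in LTP slices at 120 min, against 3329, 3159 and 3271 in basal slices, and 3523, 3809 and 3796 in LTP slices at 60 min, against 2819, 3346 and 3106. Its difference was 0.48 ± 0.059 (FDR = 1.65e-05), and its log2 response of 0.26 at 60 min passed the FDR but not the fold threshold. Bdnf, the neurotrophin most studied in LTP, had a log2 response of 0.35 at 120 min and 0.02 at 60 min, and its difference of 0.33 ± 0.055 (FDR = 0.00087) stayed under the fold threshold. The same held for Homer1, a scaffold of the postsynaptic density, with a difference of 0.34 ± 0.053 (FDR = 0.000296).

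Late-onset regulators of transcription and RNA processing followed. Of those named here, Fosl2, Atf3, Nr4a2, Ciart and Neat1 already passed the FDR at 60 min. Their log2 responses there were 0.28, 0.32, 0.24, 0.36 and 0.31, under the fold threshold. Ccnl1, a cyclin that acts in pre-mRNA splicing, had 2588, 2885 and 2717 normalised counts in LTP slices at 120 min, against 1509, 1520 and 1535 in basal slices. Its counts at 60 min were 2186, 2147 and 2250 in LTP slices, against 1915, 2095 and 2028 in basal slices. Its response was 1.79-fold at 120 min and 1.09-fold at 60 min (log2 difference 0.72 ± 0.062, FDR = 1.26e-07). Maff, a small Maf factor, had 2250, 2255 and 2196 normalised counts in LTP slices at 120 min, against 1321, 1269 and 1198 in basal slices, and overlapped at 60 min with 2163, 1852 and 1786 in LTP slices, against 1650, 1908 and 1797 (log2 difference 0.71 ± 0.084, FDR = 1.03e-05). Fosl2, an AP-1 subunit, differed by 0.45 ± 0.053 (FDR = 1.08e-05), Atf3, a stress-induced basic leucine zipper factor, by 0.52 ± 0.063 (FDR = 1.74e-05), and Nr4a2, a relative of Nr4a1, by 0.42 ± 0.069 (FDR = 0.000738, lost without replicate 2 of either time). Per1 and Ciart, repressors of the circadian clock, differed by 0.48 ± 0.068 (FDR = 0.000113) and 0.71 ± 0.094 (FDR = 4.72e-05). Neat1, the long noncoding RNA that builds paraspeckles, had 1688, 1439 and 1357 normalised counts in LTP slices at 120 min, against 848, 855 and 817 in basal slices, and 1128, 897 and 985 in LTP slices at 60 min, against 814, 843 and 752 (log2 difference 0.51 ± 0.089, FDR = 0.00139). The Per1 and Neat1 calls were lost without replicate 2 at 60 min.

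Other late-onset genes act as signalling enzymes and inhibitors. Among these, Errfi1, Tiparp, Sgk1 and Adamts1 passed the FDR at 60 min with log2 responses of 0.35, 0.27, 0.13 and 0.22, under the fold threshold. Errfi1, an inhibitor of the EGF receptor, had 9353, 10435 and 10464 normalised counts in LTP slices at 120 min, against 5001, 5227 and 5516 in basal slices. At 60 min there were 7322, 7332 and 7623 in LTP slices, against 5943, 5897 and 5642 in basal slices. Both responses were positive in every pair, at 1.92-fold and 1.27-fold (log2 difference 0.59 ± 0.050, FDR = 1.26e-07). Tiparp, an ADP-ribosyltransferase, differed by 0.66 ± 0.057 (FDR = 1.26e-07), Ifrd1, a transcriptional co-regulator, by 0.53 ± 0.054 (FDR = 1.44e-06), and Dusp14, a MAP kinase phosphatase, by 0.42 ± 0.064 (FDR = 0.000298, lost without the pair block and without replicate 2 at 120 min). Sgk1, a kinase induced by glucocorticoids, differed by 0.40 ± 0.045 (FDR = 6.69e-06), and its call was lost without replicate 2 at 120 min or replicate 3 at 60 min and after a correction for length and GC content. Adamts1, a secreted protease of the matrix, differed by 0.46 ± 0.051 (FDR = 5.84e-06), Emp1, a membrane protein, by 0.55 ± 0.078 (FDR = 0.000127, lost without the pair block), and Rnd3, an atypical small GTPase that relaxes the actin cytoskeleton, by 0.49 ± 0.073 (FDR = 0.000216).

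Cytokines and chemokines, the signals that glia, vessels and immune cells exchange in inflammation, had a median response above 0 at 120 min and below 0 at 60 min. Of 27 genes of this list tested, 6 were called higher and 0 lower in the difference, against 0.767% and 0.0831% of all genes tested. The medians were 0.15 at 120 min and -0.18 at 60 min, with 10 genes called higher and 1 lower at 120 min and 0 higher and 3 lower at 60 min. Il6, which encodes interleukin 6, had 407, 415 and 358 normalised counts in LTP slices at 120 min, against 161, 119 and 177 in basal slices. The 60 min counts were 224, 87.4 and 128 in LTP slices, against 171, 82.9 and 151 in basal slices. LTP slices were higher in every pair at 120 min and overlapped the basal slices at 60 min (log2 difference 1.27 ± 0.18, FDR = 0.000123). Cxcl1, a neutrophil chemokine, had 1349, 1163 and 1364 normalised counts in LTP slices at 120 min, against 475, 693 and 645 in basal slices, and 560, 305 and 366 in LTP slices at 60 min, against 482, 266 and 329. At 60 min replicate 1 was the highest of its group in LTP and in basal slices for both Il6 and Cxcl1. Cxcl1 differed by 0.90 ± 0.13 (FDR = 0.000128) and Cxcl10, a chemokine induced by interferon, by 0.72 ± 0.14 (FDR = 0.00564). Il1b, the precursor of interleukin 1 beta, differed by 0.69 ± 0.15 (FDR = 0.0115), a call lost without the pair block and without replicate 2 at 60 min. The Il6, Cxcl1 and Cxcl10 calls were lost without the pair block and in no fit that left out 1 pair. Il1a and Cxcl2, named after their values were seen, lost their calls without the pair block, under DESeq2 and in some fits without 1 pair. Il1a had 5545, 5310 and 5529 normalised counts in LTP slices at 120 min, against 3976, 5257 and 5639 in basal slices, and 4964, 2815 and 2766 in LTP slices at 60 min, against 5278, 3582 and 4209, so that only 60 min showed the same sign in every pair, below 0. The pair ratios of Cxcl2 overlapped between times (log2 difference 0.63 ± 0.16, FDR = 0.047).

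In the list of NF-kappa B feedback genes and targets, 4 of 20 were called higher and 0 lower, namely Ptgs2, Malt1, Nfkbie and Tnfaip2. Malt1, a protease that activates NF-kappa B, differed by log2 values between 0.59 and 0.74 in all alternative fits. Nfkbie, an inhibitor of NF-kappa B, and Tnfaip2, a target of the factor, lost their calls in some fits without 1 pair. Ptger4, a receptor for prostaglandin E2, was higher by 0.48 ± 0.12 (FDR = 0.0448), a call lost without replicate 1 or replicate 2 of either time, without the pair block and under DESeq2. Ptgdr2, a receptor for prostaglandin D2, was lower, at -1.65 ± 0.44 (FDR = 0.0743). Ptgdr2 was scarce, with 9.37, 7.51 and 9.84 normalised counts in LTP slices at 120 min, against 20.7, 24.8 and 22.7 in basal slices, and 15.5, 18.8 and 16.9 in LTP slices at 60 min, against 15.3, 14.5 and 11.9. Its call was lost in all but 1 of the fits that left out a pair.

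Other lists of genes are described by their counts beside 0.767% higher and 0.0831% lower over all genes tested. Of 28 immediate early transcription factors, 15 were called higher and 0 lower, with medians of 0.78 at 120 min and 0.34 at 60 min. Of 27 activity-regulated effectors, 9 were called higher and 0 lower (medians 0.52 and 0.22), and of 26 targets of cyclic AMP and CREB, 9 and 0 (medians 0.50 and 0.09). These lists share members and, like all lists here, were chosen with earlier results of these data known. Their shares are therefore a description and no test of the lists. Of 11 MAP kinase phosphatases 3 were called higher, of 22 targets of SRF and YAP 6, of 19 clock genes 3 (Per1, Ciart and Nfil3), and of 26 neuropeptides and growth factors 3 (Trh, Inhba and Pthlh), with 0 lower in each. Of 17 glucocorticoid-responsive genes 3 were higher (Errfi1, Sgk1 and Per1) and 1 lower (Angptl4), while Fkbp5 and Tsc22d3, defining members of that list, were not called. Only Errfi1 of 11 inhibitors of receptor tyrosine kinases, Btg2 of 18 mRNA decay factors, Cxcl10 of 17 interferon-stimulated genes, Nrarp of 15 Notch and BMP targets and Hist1h4a of 56 core histone genes were called higher, with 0 lower in each list. Histone genes are near-identical copies whose reads may be shared. Of 20 genes of the integrated stress response, Atf3 and Ppp1r15a were called higher. In the lists of 22 heat shock genes, 21 genes of cholesterol synthesis, 34 small nucleolar RNAs, 82 ribosomal proteins, 79 subunits of oxidative phosphorylation, 33 glutamate receptor genes and 30 potassium channels, 0 genes were called in either direction by edgeR's quasi-likelihood test. Of these 301 genes together, 30 had an unadjusted p under 0.05, and DESeq2, limma-trend and edgeR's likelihood ratio test called 0. The share of all genes tested with an unadjusted p under 0.05 is not given. Of 22 hypoxia genes only Angptl4 was called, lower, and of 16 long noncoding RNAs Xist and Neat1, higher.

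**Figure D4:**
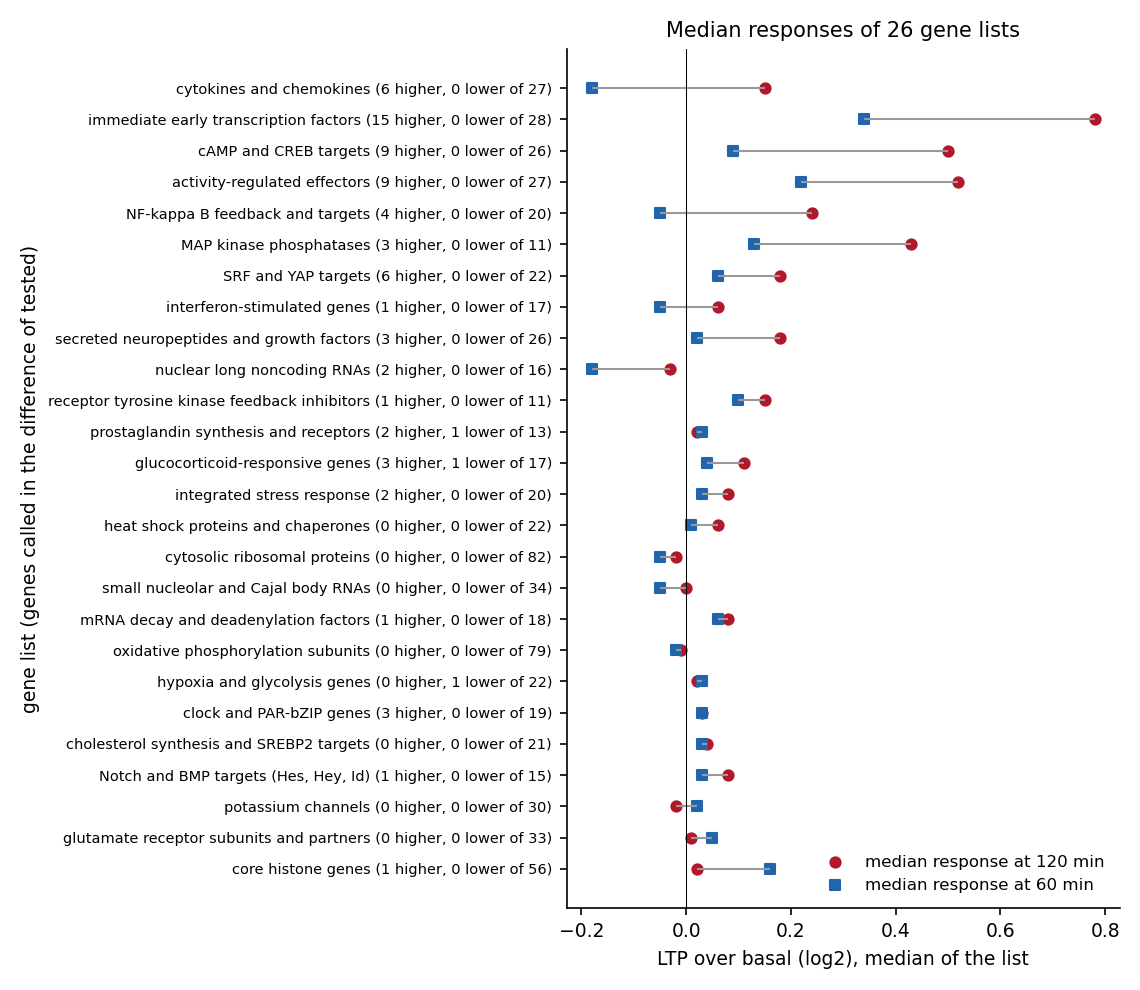
Median log2 response of LTP over basal (x axis) for 26 gene lists (y axis, with the genes called in the difference), with circles for 120 min and squares for 60 min. The immediate early transcription factors have medians of 0.78 at 120 min and 0.34 at 60 min, the cytokines lie on both sides of 0, and the ribosomal and mitochondrial lists lie near 0 at both times.

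Of the 39 genes called higher at 60 min, 13 were not called in the difference, Trib1, Gadd45g, Jun, Arl4d, Dusp5, Irs2, Snora31, Hist1h3a, Npas4, Kcnj2, Dusp2, Gm6225 and Scarna10. They were listed for this absence and are described after their values were seen. Npas4, a neuron-specific factor induced by calcium, had 4688, 5157 and 4503 normalised counts in LTP slices at 120 min, against 1307, 1203 and 1588 in basal slices. Counts at 60 min were 5716, 6400 and 7228 in LTP slices, against 1718, 2298 and 1962 in basal slices. Both groups were lower at 120 min and the responses were alike, 3.51-fold and 3.24-fold (log2 difference 0.12 ± 0.10, FDR = 0.777). Gadd45g, a stress and growth arrest gene, had 2863, 2939 and 2868 in LTP slices at 120 min, against 1481, 1540 and 1588 in basal slices, and 3494, 3155 and 3298 in LTP slices at 60 min, against 1430, 1582 and 1514. Its pair ratios at 120 min all lay below those at 60 min, but the difference of -0.22 ± 0.068 missed the threshold (FDR = 0.143). Kcnj2, an inward rectifier potassium channel, and Jun, an AP-1 subunit, differed by 0.05 ± 0.061 (FDR = 0.847) and 0.16 ± 0.051 (FDR = 0.194). Only 5 of the 39 had a smaller response at 120 min (Gadd45g, Snora31, Dusp2, Gm6225 and Scarna10), and none passed the test as smaller.

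The 13 genes with a smaller response at 120 min were 4 genes called lower in LTP at 120 min only (Angptl4, Zcchc3, Ptgdr2 and Gm6537) and 9 called at neither time alone (Nptxr, Cspg4, Wnt4, Gdpgp1, Hrh3, Znhit6, Dclre1b, Zfp53 and Oxtr). Smaller means lower on the signed log2 scale here, not a fading effect. The median response of the 4 was -1.13 at 120 min and 0.135 at 60 min, and that of the 9 was -0.33 and 0.124. Angptl4, an inhibitor of lipoprotein lipase, had 334, 382 and 299 normalised counts in LTP slices at 120 min, against 594, 741 and 576 in basal slices. At 60 min it had 301, 178 and 296 in LTP slices, against 379, 228 and 390 in basal slices. It was lower in LTP slices in every pair at both times, to 0.531-fold at 120 min and 0.778-fold at 60 min (log2 difference -0.55 ± 0.098, FDR = 0.00185), and its call was lost without the pair block. Nptxr, the neuronal pentraxin receptor and binding partner of Nptx2, had 2890, 2302 and 3021 normalised counts in LTP slices at 120 min, against 3730, 3158 and 2954 in basal slices, and 5241, 4743 and 4416 in LTP slices at 60 min, against 4101, 4647 and 3306. Its pair ratios overlapped between times, with 1 pair above 0 at 120 min (log2 difference -0.53 ± 0.096, FDR = 0.00225, lost without the pair block and under DESeq2). Wnt4, a secreted Wnt ligand, differed by -0.47 ± 0.11 (FDR = 0.0373), Hrh3, the histamine H3 receptor, by -0.41 ± 0.10 (FDR = 0.0515) and Oxtr, the oxytocin receptor, by -0.40 ± 0.11 (FDR = 0.0975). Of the 13 genes, 11 lost their call in at least 1 fit without a pair.

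The libraries held between 30006922 and 45775102 reads on genes. Slc17a7 and Camk2a, markers of excitatory neurons, were at 1130 to 1460 and 1870 to 2430 CPM (reads of a gene scaled to the library's reads on all genes) in every library, and Prox1, which marks dentate granule cells, was present at 38.7 to 53.2 CPM although the dentate gyrus had been removed. Over all genes tested, 0.767% were called higher and 0.0831% lower in the difference, so a short list of markers holds few or no calls at that share. Markers of pyramidal neurons, dentate granule cells, interneurons, astrocytes, oligodendrocytes, microglia and choroid plexus had 0 genes called in the difference by edgeR's quasi-likelihood test. Of these 91 genes 23 had an unadjusted p under 0.05, and 7 of the 23 were among the 12 choroid plexus markers. The summed level of those 12 was high in 1 library, described below. DESeq2 and limma-trend called 0 of the 91 genes, and the likelihood ratio test 1, a choroid plexus marker. The share of all genes tested with such a p is not given. Single genes were called of the markers of mural cells and oligodendrocyte precursors (Cspg4, lower), meninges (Foxc1, higher) and thalamus (Zic2, higher). Of 12 endothelial markers, Flt1, a VEGF receptor, and Mfsd2a, a lipid transporter of the blood-brain barrier, were called higher, and Apold1 and Cd93, also expressed in endothelium and named after their values were seen, were too. The summed level of these 12 markers was 119 to 130 CPM in LTP and 104 to 110 CPM in basal slices at 120 min, and 114 to 129 CPM in LTP and 124 to 141 CPM in basal slices at 60 min. Its part in these results was not tested. Flt1 and Apold1 kept their call in all alternative fits. The Cd93 call was lost in 5 of the 6 fits without 1 pair, without the pair block and under DESeq2, and that of Mfsd2a without replicate 2 of either time and without the pair block. The Zic2 call was lost without the pair block, and those of Cspg4 and Foxc1 also under DESeq2 and in some fits without 1 pair.

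Single libraries stood apart in a few transcripts. Xist, transcribed from the inactive X chromosome of females and overlapped by the antisense gene Tsix, had 2308, 2369 and 6.56 normalised counts in LTP slices at 120 min, against 1855, 1703 and 15.1 in basal slices. Its counts at 60 min were 3.87, 741 and 788 in LTP slices, against 5.10, 1142 and 1093 in basal slices. The difference of 0.93 ± 0.094 (FDR = 1.27e-06) thus rests on 4 pairs, 1 pair of each time having nearly no Xist, and its pair ratios overlapped between times. The call was lost without the pair block, under DESeq2 and under limma-trend, and in no fit that left out 1 pair. Ttr, the most abundant transcript of choroid plexus, was at 83.0 CPM in basal replicate 1 at 60 min and at most at 1.81 CPM in every other library, and the summed choroid plexus markers were at 173 CPM there. The gene F5, which was scarce, was at its highest of all 12 libraries in that one, and its call was lost without that pair, without replicate 2 or replicate 3 at 120 min, without the pair block and under DESeq2. Of the 13 genes lower in LTP at 60 min, 3 were choroid plexus markers (Ttr, Kcnj13 and Clic6), and 1 of the 13 was called lower at 120 min, the chemokine Ccl9. Summed kidney markers, a tissue foreign to the slices, were at 34.7 to 37.8 CPM in LTP and 40.0 to 48.2 CPM in basal slices at 120 min, with 3 called lower at 120 min, and 34.2 to 37.2 CPM in LTP and 36.1 to 37.9 CPM in basal slices at 60 min. Kap, of this list, was at 0.126 to 1.83 CPM at 120 min and at 0 CPM in every 60 min library. Pdzk1 and Slc13a3, also of the list, were at 7.32 to 10.6 and 7.4 to 10.8 CPM over the 12 libraries. The sum is thus no measure of kidney RNA alone. Nphs1, called higher by 0.86 ± 0.24 (FDR = 0.0934), is a member of that list, and its call was lost without the pair block, under DESeq2 and in 4 of the 6 fits without 1 pair. The part of these libraries in the other results was not tested beyond the fits that left out each pair.

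The responses at 30 min were set beside those of the later times without a test between them, since the libraries at 30 min were single-end and from another batch. At 30 min 47 of 15063 genes tested were called higher (0.312%) and 15 lower (0.0996%). None of the 74 late-onset genes was called higher at 30 min, while 11 of the 26 genes still rising were. The late-onset gene Trh passed the criteria as lower in LTP slices there (log2 response -0.68, FDR = 0.0576). Fos had log2 responses of 0.61, 0.93 and 1.71 at 30, 60 and 120 min, Arc 0.94, 1.32 and 1.76, and Btg2 1.24, 1.84 and 2.29. Trh had -0.68, 0.27 and 2.34, and Gem 0.02, 0.10 and 1.01. Npas4 had 1.39, 1.69 and 1.81, and Gadd45g 1.02, 1.13 and 0.91.

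**Figure D5:**
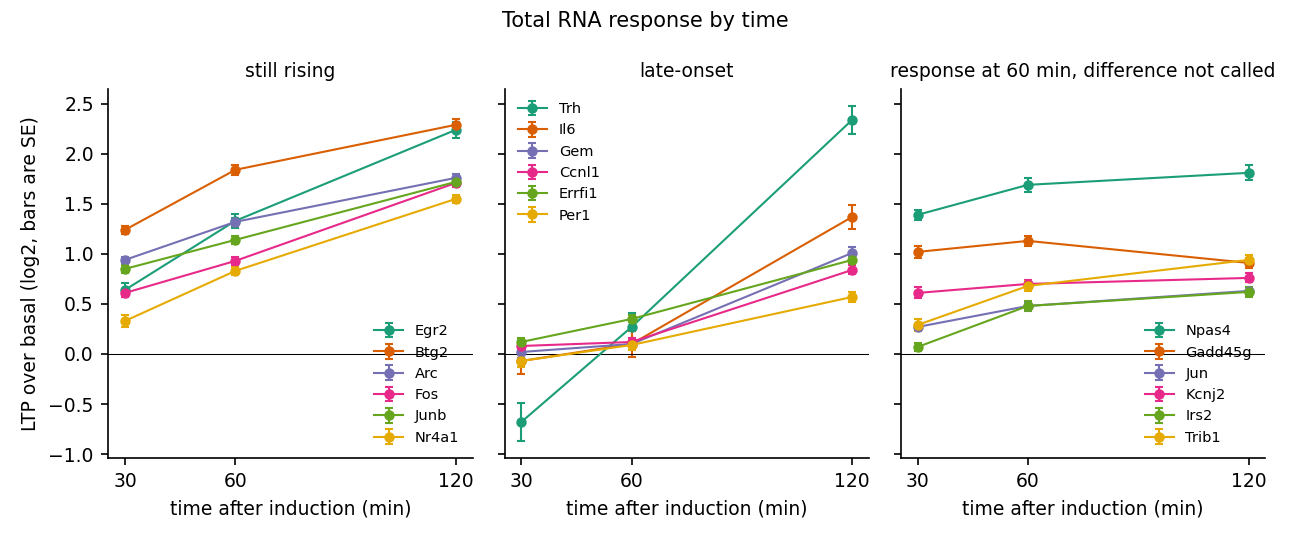
Log2 response of LTP over basal (y axis, bars are SE) at 30, 60 and 120 min (x axis) for 6 genes still rising, 6 late-onset genes and 6 genes with a response at 60 min whose difference was not called. The first set is above 0 from 30 min on, the second departs from 0 mainly at 120 min, and Npas4 and Gadd45g in the third are above 1 at 30 min. Trh, in the second set, is below 0 at 30 min.

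TRAP RNA of the same homogenates gives the same contrast on ribosomes of excitatory neurons. Its basal replicate 1 at 60 min is titled 60 min while its time field says 30 min, and it was taken by its title. Without that pair, a fit chosen after seeing the data called 99 genes larger and 40 smaller in TRAP RNA, and Total minus TRAP called 71 higher and 64 lower. With all pairs, 120 of 14730 genes tested were called larger at 120 min (0.815%) and 63 smaller (0.428%). Of the 120 genes called larger in Total RNA, 117 were tested in TRAP RNA, 106 had a difference above 0 there, 47 were called, and their median was 0.43 against 0.00 over all genes tested in TRAP RNA. Fos differed by 0.77 in both. None of the 6 cytokine genes was called in TRAP RNA, with a TRAP difference of 0.90 ± 0.68 (FDR = 0.528) for Il6 and 0.43 ± 0.41 (FDR = 0.639) for Cxcl1, and the test of Total minus TRAP called neither. The test of Total minus TRAP called 42 genes higher (0.266%) and 51 lower (0.323%) of 15798. Among the 120 genes it called 9 with a larger change in Total RNA (Rasl11a, Tpbg, Trmt61b, Tinf2, Vps37b, Btg2, Neat1, F5 and Nphs1) and 3 with a larger change in TRAP RNA (Egr2, Fosb and Rnd3). Btg2 had a TRAP difference of -0.02 ± 0.072, against 0.45 ± 0.077 in Total RNA, and Fosb 1.07 ± 0.078, against 0.56 ± 0.068. Without replicate 1 at 60 min the TRAP differences were -0.08 for Btg2, 1.03 for Fosb, 0.78 for Fos, 1.24 for Il6 and 0.03 for Cxcl1, and 42 of the 117 genes were called in TRAP RNA. The Total minus TRAP counts ran between 10 and 71 higher and 18 and 64 lower when single pairs were left out.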

How the data were processed

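The authors depleted rRNA, made TruSeq libraries that keep no strand, and, per the labels' processing notes, used STAR, mm10 and edgeR. The deposited tables hold raw read counts per gene, which the authors left unnormalised in the columns used here. Without strand, overlapping and antisense genes cannot be told apart. The columns of the authors' own fold changes and FDR values were not used.

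Counts were joined by gene and tested with edgeR 4.0.16 (R 4.3.3) on the 12 Total libraries: TMM scaling, filterByExpr, 6 pair blocks, 1 LTP term per time and quasi-likelihood F tests of each term and of their difference. SE is the log2 value divided by the root of F. Pair ratios used a pseudocount of 0.5 on normalised counts. Pairing comes from the series' design, and deviations of same-numbered LTP and basal libraries correlated at 0.1 to 0.305, against at most 0.0161 for other numbers. TRAP RNA and the 30 min libraries had their own fits, and Total minus TRAP used 24 libraries with homogenate and pair by population as blocks. Figures and tables used Python 3.11.15, pandas 2.3.3, numpy 2.4.6 and matplotlib 3.10.9. Alternatives included DESeq2 1.42.0 and limma 3.58.1. The fit was tested on simulated data.

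Genes were named by rule: the 15 called genes with the smallest p in each direction, up to 4 genes a list, and every gene of small counts. Other named genes, such as Egr1, Egr2, Egr4, Fosb, Klf2, Ier2, Fosl2, Maff, Nr4a2, Arc, Mir132, Mir212, Pthlh and Rnd3, were chosen after their values were seen. The lists and the comparison itself were chosen with earlier results of these data known. Replicates pool slices of several mice. With pair blocks, p-values measure how the ratio of LTP over basal varied between such pools, not the spread of their levels.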

Additional observations from a re-analysis of the deposited data

Results flagged for a closer look

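The Total RNA response to LTP differed between 120 and 60 min by the test of the difference for 133 genes. In 13 of these genes the change of the response between times also differed between Total and TRAP RNA by the test of that difference. The Total minus TRAP log2 values were 0.65 for Rasl11a, 0.87 for Tpbg, 0.73 for Trmt61b, 0.51 for Tinf2, 0.40 for Vps37b, 0.48 for Btg2, 0.67 for Neat1, 4.55 for F5 and 1.75 for Nphs1, larger in Total RNA. They were -0.52 for Egr2, -0.52 for Fosb, -0.45 for Rnd3 and -0.41 for Nptxr. Rasl11a, Tpbg, Btg2 and Fosb kept their calls in every fit that left out 1 pair. F5 had too few reads in TRAP RNA to be tested there alone, and its library with high choroid plexus markers is described above. TRAP libraries had scaling factors of 0.344 to 1.26, against 0.985 to 1.02 in Total RNA. The part of this in these values was not tested. Groups of 3 libraries were not searched for single values far from the others.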

How the results depend on the processing

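Of the 120 genes with a larger response at 120 min, 53 were called in all 15 alternatives that tested them and 0 reversed. Of the 13 with a smaller one, 0 were called in all and 0 reversed. The cause of the changes below was not tested. Without the replicate block the counts were 72 larger and 1 smaller, 45 late-onset genes against 74, 16 lower at 120 min against 33 and 2 lower at 60 min against 13, and for TRAP RNA 16 and 4 against 120 and 63. At 30 min the counts without the block were 17 and 1 against 47 and 15. Without the homogenate block, Total minus TRAP gave 15 and 27 genes against 42 and 51. An FDR of 0.1 with no fold threshold gave 250 larger and 47 smaller responses, and an FDR of 0.05 gave 6 smaller. DESeq2's Wald test called 1 smaller response, 9 lower at 120 min and 1 lower at 60 min, and edgeR's likelihood ratio test 26, 56 and 28. No filter on low counts gave 25 lower at 60 min, and limma-trend 8. Leaving out 1 pair gave 85 to 147 larger and 4 to 21 smaller responses, 55 to 87 late-onset and 19 to 26 still rising genes, 17 to 43 lower at 120 min, and 11 to 20 lower at 60 min (20 without replicate 2 or replicate 3 at 60 min). The 17 came without replicate 2 at 120 min. For Total minus TRAP these ranges were 10 to 71 higher (24 without replicate 2 at 120 min, 20 and 10 without replicate 2 and replicate 3 at 60 min, 71 without replicate 1 at 60 min) and 18 to 64 lower (21 without replicate 2 at 120 min, 18 without replicate 3 at 60 min). TRAP RNA without replicate 1 at 60 min, where 1 label conflicts and chosen after seeing the data, gave 99 and 40 genes against 120 and 63. Across 11623 genes above 4 CPM the difference had a Spearman correlation of -0.25 with GC content and -0.02 with length. Removing both trends with the replicate block, chosen after seeing the data, left 111 of the 120 and 8 of the 13 calls. Of the called genes, 2 were not tested in that fit. With 3 pairs a time, fold differences near the threshold of 0.4 are the least certain, and scarce genes such as Gm6537, Ptgdr2 and F5 rest on a few reads a library.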
